A study of Mus musculus with 6 samples.

Results

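The histone methylation writers and erasers described here are 10 genes for enzymes or enzyme subunits that add methyl groups to lysines of histone H3 or remove them. They were taken by symbol, by a rule that uses no measured value, and all 10 were among the 30967 genes with at least 1 count in any library. Kdm5a, Kdm5b and Kdm1a encode H3K4 demethylases and Kdm6b an H3K27 demethylase. Ehmt1, Ehmt2, Setdb1 and Suv39h1 encode H3K9 methyltransferases, and Ezh2 and Eed encode core subunits of Polycomb repressive complex 2 (PRC2), the H3K27 methyltransferase. Methylation of H3K4 marks active or poised promoters, whereas methylation of H3K9 and H3K27 marks silent heterochromatin and repressed developmental genes. After fertilization these marks are rebuilt on the parental genomes, and in the mouse 2-cell embryo the broad H3K4 trimethylation inherited from the oocyte is removed while the embryonic genome is switched on. The enzymes are at that stage supplied partly by transcripts from the oocyte and partly by new transcription.

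RNA was sequenced from 2-cell embryos that had developed from control or from delipidated mouse zygotes, to ask which transcripts respond to the removal of lipid droplets. All embryos were of the strain F1 (C57Bl/10 X CBA/H) with the genotype wt, were cultured in vitro from the zygote in KSOM free of fatty acids, and were collected at day 2. For delipidation, zygotes were treated with cytochalasin B, spun so that the droplets gathered outside the cell under the zona pellucida, opened with a laser and freed of the droplets by aspiration. The sources do not say that control zygotes went through these steps, so the loss of lipid and the manipulation cannot be told apart. Embryos of several females were mixed before they were allocated to the groups, and each of the 3 control and 3 delipidated libraries was a pool of 3 embryos. Per the paper, the pools of a group were drawn at random from the embryos of that group, and nothing states separate cultures. The p-values therefore measure the spread between pools of the same mixed lot, not between independent treatments or sets of animals. The counts assigned to genes were 12164963, 16165958 and 12980787 in control replicates 1 to 3 and 20059460, 16332103 and 14683741 in delipidated replicates 1 to 3. The numbers of genes with a count were 22855, 22437 and 20582 in control pools and 17091, 19408 and 20158 in delipidated pools, fewer in each delipidated library than in any control library. Delipidated replicate 1 had the most counts and the fewest such genes, and the part of this in the comparisons was not tested. The counts are sums over exonic parts, the non-overlapping pieces into which the exons of a gene are divided, and a read that crosses several parts was counted in each, so counting error is larger than the sums imply.

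The stage label was checked against genes of the 2-cell stage. All 12 of the listed genes, of which Zfp352 was the most abundant, had counts in every library. Their summed level was 505, 230 and 435 counts-per-million (CPM) in control pools and 287, 363 and 552 CPM in delipidated pools. Control replicate 2 had the lowest and delipidated replicate 3 the highest sum, and the groups overlapped. Maternal oocyte transcripts, 14 of 15 matched and led by Oosp1, summed to 1580, 1105 and 1543 CPM in control pools and 1238, 1436 and 1746 CPM in delipidated pools. Markers of cumulus and granulosa cells summed to 5.74, 10.2 and 68.7 CPM in control pools and 1.73, 9.83 and 11.9 CPM in delipidated pools, with Ptx3 and Foxl2 at 0 in every library. Cyp11a1 was the most abundant of them only through control replicate 3, with 4, 0 and 653 counts in control pools and 0 in each delipidated pool. Stromal cell markers, led by Vim, summed to 18.5, 18.9 and 29.0 CPM in control pools and 1.93, 5.96 and 4.31 CPM in delipidated pools. The groups did not overlap in this sum through Vim, which had 12.8, 8.77 and 22.8 CPM in control pools and 0 in each delipidated pool. Without Vim the sums overlapped. Col1a1 was likewise at 0 in each delipidated pool, against 0.928, 1.57 and 3.19 CPM, as were Col3a1 and Lum, which had at most 0.844 CPM in control pools, while Dcn and Thy1 were highest in a delipidated pool. Trophectoderm markers, led by Eomes, summed to 9.79, 9.01 and 13.5 CPM in control pools and 5.38, 5.16 and 6.92 CPM in delipidated pools. That order came from Eomes alone, with 7.42, 6.83 and 12.7 CPM in control pools against 2.42, 1.60 and 1.20 CPM, whereas Gata3 was higher in every delipidated pool, at 2.96, 3.50 and 4.09 CPM against 2.11, 1.69 and 0.760 CPM. Gata3 and the stromal genes other than Vim were singled out on sight of the values. The part of these markers in the comparisons was not tested. Leukocyte markers, led by Csf1r, were between 5.16 and 16.0 CPM and oviduct epithelium markers, led by Epcam, between 90.4 and 249 CPM, with overlap between the groups. The oviduct sum was mostly Epcam, at 82.5 to 221 CPM, and each of the other genes of that list had at most 20.2 CPM.

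None of the 10 histone methylation genes differed between control and delipidated embryos beyond the spread between pools. By edgeR's quasi-likelihood test, 0 were called higher and 0 lower at an adjusted p under 0.05 and a log2 fold change beyond 1, where 0.0% of the 16020 genes tested were called higher and 0.0% lower. An unadjusted p under 0.05 was found for 0 of the 10 genes, against 463 of all genes tested (2.89%), of which 1.15% were higher and 1.74% lower in delipidated embryos. DESeq2's Wald test and limma-voom also called 0 of the 10. Over all genes, DESeq2 without edgeR's filter on low counts, but with its own default filtering, called 9 higher and 40 lower. By limma-voom 0 were called. The libraries of the groups overlapped for all 10 genes, whereas 1420 genes (8.86%) did not overlap, 3.81% with the delipidated and 5.05% with the control libraries on top. All 10 genes passed the filter on low counts. The fold change was positive for Kdm5b, Kdm6b and Ezh2 and negative for the other 7, with a median log2 fold change of -0.18 (all genes tested, -0.00073). For 9 of the genes the 95% interval did not reach a 2-fold change in either direction, and for Ehmt2 it did. Differences within these intervals were not excluded with 3 pools a group. An exact two-sided permutation test of 3 against 3 libraries cannot give a p under 0.1. In whole pooled embryos, fewer cells that express a gene and less of its RNA per cell cannot be told apart.

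**Figure D1:**
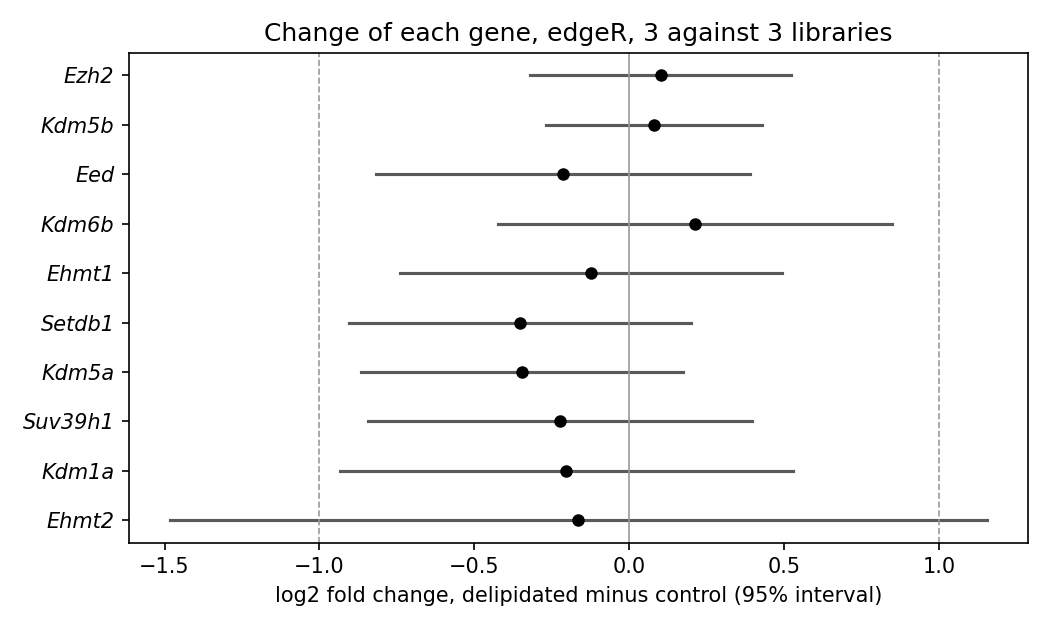
The log2 fold change between delipidated and control embryos (x axis, points) is drawn for the 10 histone methylation genes with its 95% interval (horizontal lines), from edgeR's quasi-likelihood fit of 3 against 3 libraries. The dashed lines mark a change of 1 on the log2 scale in either direction, and every interval includes 0.

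Levels were compared between genes as CPM per kilobase of exonic parts in the control embryos. Ezh2 was the most abundant at 97.7 ± 7.30 CPM per kilobase (SD, n = 3), a level reached by 2.76% of the genes tested. It was followed by Kdm5b at 67.0 ± 6.16, Eed at 37.1 ± 10.7, Kdm6b at 33.4 ± 3.63 and Ehmt1 at 22.5 ± 5.07 CPM per kilobase (SD, n = 3 each). Lower levels were found for Setdb1 at 17.4 ± 3.83, Kdm5a at 17.3 ± 4.85, Suv39h1 at 14.9 ± 3.55 and Kdm1a at 13.3 ± 5.43 CPM per kilobase (SD, n = 3 each). Ehmt2 was the least abundant at 5.18 ± 3.30 CPM per kilobase (SD, n = 3), and 41.2% of the genes tested were at or above it. Neighbours in this order whose control libraries did not overlap were Ezh2 and Kdm5b, Kdm5b and Eed, Kdm6b and Ehmt1, and Kdm1a and Ehmt2, the last pair by a narrow margin (lowest Kdm1a library 8.89, highest Ehmt2 library 8.73 CPM per kilobase). Eed and Kdm6b overlapped, as did each neighbouring pair from Ehmt1 down to Kdm1a. Kdm6b lay above Eed in control replicate 2 and in delipidated replicates 2 and 3. The levels depend on which parts count as the gene. Coding parts alone, a measure chosen after the data were seen, kept Ezh2 at 238, Kdm5b at 200 and Eed at 78.3 CPM per kilobase at the top. Ehmt2 at 6.55 CPM per kilobase stayed at the bottom. Kdm5a moved up to 38.7 ± 11.3 CPM per kilobase, beside Ehmt1 at 38.1 ± 8.74 and Kdm6b at 35.2 ± 3.51 (SD, n = 3 each). The means of these genes differed by less than the SD of Kdm5a, so they were not ordered. In the longest part of each gene alone the order was another, with Kdm6b at the top at 35.3 and Ezh2 at 0.319 CPM per kilobase. Noncoding parts made up 67.4% of the exonic length of Kdm5b and held 2.31% of its counts.

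**Figure D2:**
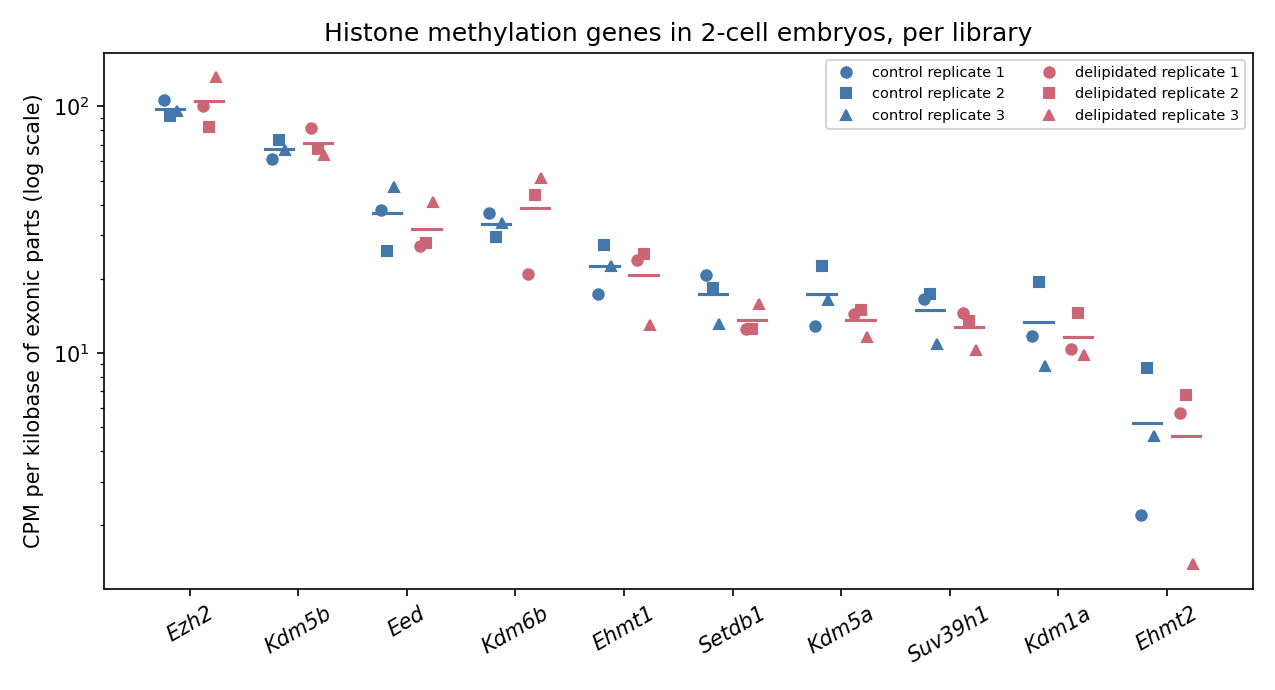
The level of each histone methylation gene is plotted in CPM per kilobase of exonic parts (y axis, log scale) for the 3 control (blue) and 3 delipidated (red) libraries, with a horizontal bar at the group mean. The groups overlap for every gene, and Ehmt2 has the widest spread, from 1.39 to 8.73 CPM per kilobase.

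Kdm5b, which removes di- and trimethylation from H3K4 and takes part in the removal of the broad oocyte H3K4 domains, carried the most counts of the 10 genes. In GRCm38, the build of all positions given here, it spans 134560171 to 134635285 of chromosome 1 on the forward strand (ENSMUSG00000042207). The level of Kdm5b was 1009, 1213 and 1106 CPM in control pools and 1354, 1115 and 1048 CPM in delipidated pools. Delipidated replicate 1 was highest, and the other delipidated libraries lay within the control range. Its log2 fold change was 0.08 ± 0.16 (SE, 95% interval -0.27 to 0.43), and the adjusted p was 1.00 by edgeR. Without delipidated replicate 1 it was -0.04.

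Kdm5a, the paralogue with the same activity (ENSMUSG00000030180, chromosome 6, forward strand, 120364124 to 120444574), had 2169, 5272 and 3063 counts in control pools and 4111, 3430 and 2325 counts in delipidated pools. In CPM these were 183, 319 and 233 against 203, 211 and 164. Control replicate 2 stood above the rest, and control replicate 1 lay among the delipidated libraries. Kdm5a had the smallest p of the 10 genes, 0.172 by edgeR before adjustment and 1.00 after it, with a log2 fold change of -0.35 ± 0.24 (SE, 95% interval -0.87 to 0.17). The value rested partly on control replicate 2, without which it was -0.11, and was -0.51 without control replicate 1 and -0.05 in the single part with most counts. Over the 6 libraries, the genes whose log2 CPM was most like that of Kdm5a were Slc35e2 (Pearson r = 0.997), G2e3 (r = 0.982) and Gm42727 (r = 0.981), among 127 of 16019 genes with an r over 0.9. The values share the libraries and their depth, and all 3 genes were highest in control replicate 2.

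Kdm1a, also called LSD1, is an amine oxidase that removes mono- and dimethylation from H3K4 (ENSMUSG00000036940, chromosome 4, reverse strand, 136550540 to 136602723). Its levels were 60.7, 100.5 and 46.1 CPM in control pools and 53.8, 75.3 and 50.9 CPM in delipidated pools. All 3 delipidated libraries lay inside the control range. The log2 fold change was -0.20 ± 0.33 (SE, 95% interval -0.94 to 0.53), and it was 0.17 without control replicate 2.

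Kdm6b removes di- and trimethylation from H3K27 and is listed as ENSMUSG00000018476, on the reverse strand of chromosome 11 from 69398508 to 69413675. Its levels were 257, 206 and 233 CPM in control pools and 146, 305 and 355 CPM in delipidated pools. The control libraries were close together, with a coefficient of variation of 10.9%, while the delipidated libraries lay on both sides of them, with 40.6%. The means of 232 ± 25.3 CPM (SD, n = 3) in control and 269 ± 109 CPM (SD, n = 3) in delipidated embryos gave a log2 fold change of 0.21 ± 0.29 (SE, 95% interval -0.42 to 0.85). The value depended on single delipidated libraries. Without replicate 1 the log2 fold change was 0.51, with an unadjusted p of 0.0373 and an adjusted p of 1.00 by edgeR (0.803 to 1.00 over the alternatives), and without replicate 3 it was -0.04. Parts that overlap Kdm6bos on the opposite strand held 7.64% of the Kdm6b counts.

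Ehmt1 (GLP) and Ehmt2 (G9a) form the complex that places mono- and dimethylation on H3K9. Ehmt1, ENSMUSG00000036893, lies on the reverse strand of chromosome 2 from 24789928 to 24919614. The 63 parts counted here carry identifiers joined with Gm37139 and were assigned to Ehmt1 by its annotated exons. Another 3 parts, with 685 counts, could not be assigned in this way and were left out. Ehmt1 reached 141, 223 and 182 CPM in control pools and 193, 204 and 105 CPM in delipidated pools. Delipidated replicate 3 was the lowest library, and the other delipidated libraries lay within the control range. Its log2 fold change was -0.12 ± 0.28 (SE, 95% interval -0.74 to 0.49), and was 0.12 without delipidated replicate 3 and 0.05 without control replicate 2.

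Ehmt2, ENSMUSG00000013787, is on chromosome 17, forward strand, from 34898469 to 34914052 and was the most variable of the 10 genes. It had 143, 792 and 334 counts in control pools and 635, 605 and 108 counts in delipidated pools, which corresponds to 12.1, 47.9 and 25.4 CPM and to 31.4, 37.2 and 7.62 CPM. Both groups held libraries with high and with low values, and the coefficient of variation was 63.7% in control and 61.7% in delipidated embryos. The log2 fold change was -0.17 ± 0.60 (SE, 95% interval -1.48 to 1.15), so a 2-fold change in either direction was not excluded. Without control replicate 2 it was 0.44 and without delipidated replicate 3 it was 0.26. The counts were patchy along the gene. They covered 29, 42 and 31 of its 59 parts in control pools and 21, 36 and 18 parts in delipidated pools, and the part with most counts, from 34911363 to 34911478, had 0, 59 and 7 counts in control pools and 107, 0 and 0 counts in delipidated pools. The libraries with the least Ehmt2, delipidated replicate 3 and control replicate 1, had the highest sums of the 2-cell stage genes, 552 and 505 CPM, and control replicate 2, with the most Ehmt2, had the lowest sum, 230 CPM. This order was noticed after the values were seen, and its part in the spread of Ehmt2 was not tested.

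Setdb1, which trimethylates H3K9 at retrotransposons together with the corepressor Trim28, is listed as ENSMUSG00000015697 on the reverse strand of chromosome 3 from 95323525 to 95357202. It had 141, 125 and 90.2 CPM in control pools and 85.4, 85.8 and 108 CPM in delipidated pools. Control replicates 1 and 2 lay above all delipidated libraries, and control replicate 3 lay below delipidated replicate 3. From 119 ± 26.3 CPM (SD, n = 3) in control to 93.2 ± 13.1 CPM (SD, n = 3) in delipidated embryos, the log2 fold change was -0.35 ± 0.25 (SE, 95% interval -0.91 to 0.20). The p was 0.186 before and 1.00 after adjustment by edgeR. The log2 fold change was -0.20 without control replicate 1, -0.52 without control replicate 3 and -0.02 in the single part with most counts. Of the Setdb1 counts, 8.94% lay in parts that overlap Cers2 or Gm37500 on the opposite strand.

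Suv39h1, which trimethylates H3K9 in pericentric heterochromatin, is listed as ENSMUSG00000039231 on the reverse strand of chromosome X from 8061171 to 8074760. Its levels were 87.3, 91.6 and 57.2 CPM in control pools and 76.5, 71.2 and 54.4 CPM in delipidated pools. Control replicate 3 lay among the delipidated libraries. The log2 fold change was -0.23 ± 0.28 (SE, 95% interval -0.84 to 0.39), and with each library left out it ran from -0.41 (control replicate 3) to -0.096 (delipidated replicate 3). Parts that overlap Gm14820 on the opposite strand held 43.1% of its counts. In part 3, from 8074544 to 8074621, Suv39h1 was given 77, 106, 55, 122, 78 and 64 counts in control replicates 1 to 3 and delipidated replicates 1 to 3, and the overlapping part of Gm14820 was given 77, 99, 48, 122, 78 and 60. Reads of these genes therefore cannot be told apart there. Leaving out such parts, a choice made after the data were seen, lowered the control level of Suv39h1 from 14.9 to 9.87 CPM per kilobase.

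Ezh2 is the catalytic subunit of PRC2 (ENSMUSG00000029687, chromosome 6, reverse strand, 47530139 to 47595341). Its levels were 706, 610 and 641 CPM in control pools and 671, 552 and 876 CPM in delipidated pools. Delipidated replicates 2 and 3 were the lowest and the highest of all libraries. The means of 652 ± 48.7 CPM (SD, n = 3) in control and 700 ± 164 CPM (SD, n = 3) in delipidated embryos corresponded to a log2 fold change of 0.10 ± 0.19 (SE, 95% interval -0.32 to 0.52). The direction depended on delipidated replicate 3, without which the value was -0.10.

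Eed, the PRC2 subunit that binds trimethylated H3K27, is listed as ENSMUSG00000030619 on the reverse strand of chromosome 7 from 89954654 to 89980983. It had 145, 99.5 and 181 CPM in control pools and 104, 107 and 156 CPM in delipidated pools. All delipidated libraries lay within the control range. The log2 fold change was -0.21 ± 0.28 (SE, 95% interval -0.82 to 0.39), but -0.0026 without control replicate 3 and -0.43 without delipidated replicate 3.

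The wider list held 51 other genes for writers, erasers and partner subunits of histone lysine methylation, and all 51 passed the filter on low counts. By edgeR 0 were called higher and 0 lower, 0 had an unadjusted p under 0.05, and DESeq2 and limma-voom called 0. Of their log2 fold changes 28 were positive and 23 negative, and the median was 0.0070. The groups did not overlap for 1 of the 51 (3.81% of all genes tested were higher in this way), Setd1b, the catalytic subunit of an H3K4 methyltransferase complex, which was named after its values were seen. Setd1b had 117, 95.2 and 104 CPM in control pools and 121, 123 and 146 CPM in delipidated pools, a log2 fold change of 0.30 ± 0.22 (SE) and an adjusted p of 1.00 by edgeR. The third core PRC2 subunit, Suz12, had 259 ± 16.9 CPM per kilobase in the control embryos (SD, n = 3), above Ezh2 and Eed in level. Per role, the most abundant other genes were Kmt2c for H3K4 methyltransferases at 126 CPM per kilobase, Setd2 for H3K36 methyltransferases at 103, Trim28 for H3K9 methyltransferases and partners at 101.0, Kmt5a for H3K79 and H4K20 methyltransferases at 71.7 and Kdm4a for H3K9 demethylases at 57.6 CPM per kilobase. The H3K36 demethylase Kdm2b at 25.5, the H3K4 demethylase Kdm1b at 25.2 and the H3K27 demethylase Kdm6a at 23.2 CPM per kilobase were lower, with means below those of Kdm6b and Kdm5b on the same scale. Over the 51 genes the log2 fold change ranged from -0.60 for Men1 to 2.34 for Phf19, both also named after their values were seen. Phf19 was sparse, with 44, 15 and 0 counts in control pools and 405, 24 and 25 counts in delipidated pools, and its 95% interval was -0.72 to 5.39.

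The counts per exonic part show which exons of the 10 genes were covered. For each gene with at least 500 counts and 8 coding parts, the share of counts on the 5′ side of the middle of the coding length was taken, and its median over 6479 genes was 61.3% (quartiles 45.9% and 75.8%). Ehmt1 had 90.4% of its assigned counts there, on 48.9% of the coding length, and 5.39% of the genes had as high a share. The share was 90.0%, 86.8% and 90.6% in control pools and 87.2%, 95.7% and 96.3% in delipidated pools, so it was found in every pool and the groups overlapped. Part 24, from 24858173 to 24858250, had 10.4, 19.7 and 14.4 CPM in control pools and 13.4, 14.6 and 10.7 CPM in delipidated pools, whereas part 26, from 24852733 to 24852802, had at most 1.54 CPM. Eed also had most of its counts near the 5′ end, 84.0%, and 12.5% of the genes had as high a share. Over parts of at least 50 bases Ehmt1 with 89.8% and Eed with 88.7% were nearly equal, and 5.25% and 6.20% of the genes had as high a share. Kdm5a with 34.2%, Ezh2 with 38.3% and Ehmt2 with 39.8% had lower shares. Over the parts of that length these were 37.2% for Kdm5a, 34.6% for Ehmt2 and 48.5% for Ezh2. The share of Ezh2 thus depended on its short parts. As high a share as that of Ezh2 was found in 70.2% of the genes over parts of that length and in 84.7% over all parts. Over all parts, Kdm6b, Kdm5b, Setdb1, Kdm1a and Suv39h1 lay between 54.7% and 62.3%.

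Of the 10 genes, 288 parts had at least 60 counts over the 6 libraries. The delipidated pools were all higher than the control pools in 11 of them (3.82%) and all lower in 19 (6.60%), against 4.56% and 4.49% of 119335 such parts of all genes tested that carry a single gene identifier (those of Ehmt1 carry joined ones). Ehmt1 held 43 of the 288 parts, of which 0 were higher and 3 lower, so the members and the background are unlike sets. Neither share is therefore read as a difference from the background. Since neighbouring parts share reads, no test was made of either. Ezh2 held 6 of the 11 parts that were higher and 5 of the 19 that were lower. Its part 3, the noncoding exon at the RefSeq start, from 47594894 to 47595030, had 41, 85 and 53 counts in control pools and 183, 131 and 137 counts in delipidated pools. Parts 5, 6 and 7, from the exons that follow, were also higher in every delipidated library, at 30.9 to 49.5 CPM against 25.8 to 30.0 CPM in part 6. Parts 26, 27, 28, 31 and 37 of Ezh2, further towards the 3′ end, were lower, and parts 40 and 41 near its 3′ end were higher. Kdm5b was higher in parts 11, 12, 13 and 25 and lower in part 23. The last part of Kdm5a, a noncoding stretch from 120439712 to 120444574, had 4.39, 8.35 and 8.13 CPM in control pools and 1.63, 1.54 and 1.84 CPM in delipidated pools. The coding part before it, part 45, was 4.10 to 4.23 CPM in the control and 2.61 to 3.95 CPM in delipidated pools. Kdm6b and Ehmt2 had 0 such parts in either direction. These parts were picked after their values were seen and were given no test.

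**Figure D3:**
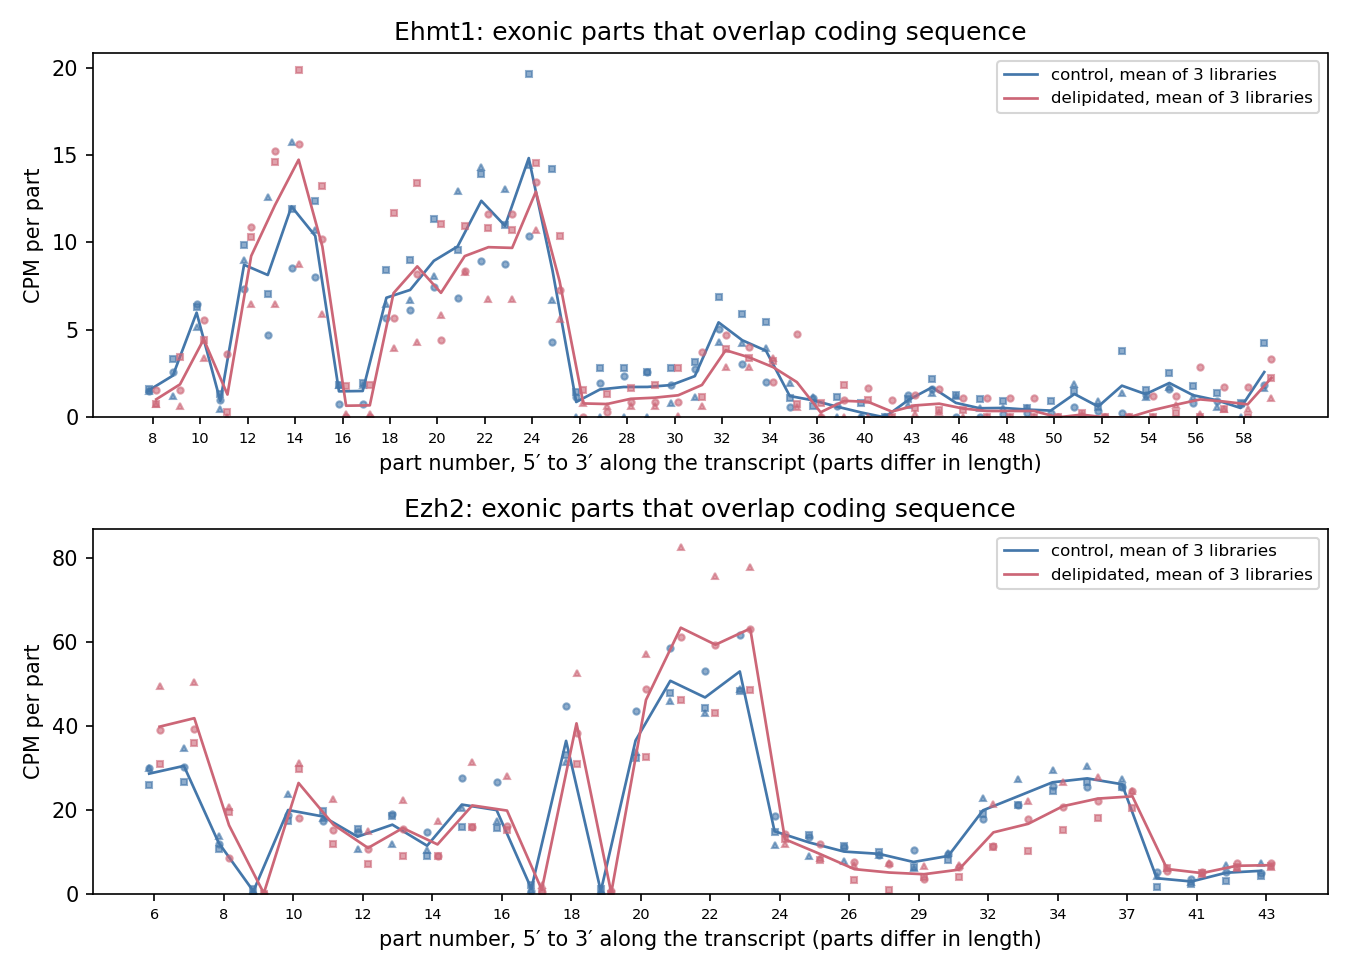
CPM per exonic part (y axis) is plotted for the parts of Ehmt1 (top) and Ezh2 (bottom) that overlap coding sequence, ordered from the 5′ to the 3′ end (x axis, part number), with a symbol for each library and a line for the mean of the 3 control (blue) and 3 delipidated (red) libraries. In both groups the counts of Ehmt1 drop after part 25, with a smaller peak at parts 32 to 34, and parts 6 and 7 of Ezh2 are higher in every delipidated library.

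Promoter sequences from RefSeq (GRCm38.p6) were matched for 8 of the 10 genes, with 10 promoters in all, and Kdm5a and Kdm6b were not matched. The 250 bases before the start were searched on both strands for the motif GGGCGG, for the motif CCAAT, for the motif TATAAA and for the E-box motif CACGTG, none of which contains another. Of 32851 promoters, 32.7% held GGGCGG, 33.9% CCAAT, 12.4% TATAAA and 6.02% CACGTG, and the median promoter had 6 CpG and 52.4% GC. The 10 promoters had 11 to 36 CpG each, and 0 of them held TATAAA. Both promoters of Ehmt2, and no other of the 10, held CACGTG, and they had 18 and 36 CpG. Ezh2 had 3 CCAAT matches and 23 CpG. Suv39h1 has a pair of annotated starts, and counts were compared between the exons near them. The upstream exon outside Gm14820, parts 1 and 2 from 8074622 to 8074760, had 68, 127 and 21 counts over 139 bases in control pools and 141, 95 and 61 in delipidated pools. The inner exon, parts 4 and 5 from 8074116 to 8074313, had 26, 45 and 36 counts over 198 bases in control pools and 0, 14 and 24 in delipidated pools. Its parts begin downstream of the inner start, whose promoter spans 8074362 to 8074611, so these counts do not decide which start was used. The upstream exon had the higher count in 5 of 6 libraries, the exception being control replicate 3, and the promoter before it is shown together with that of Kdm5b, the gene with most counts. The Suv39h1 promoter (chrX:8074761-8075010, reverse strand) held 11 CpG, and the Kdm5b promoter (chr1:134559928-134560177, forward strand) held 13. Sequences are written 5′ to 3′ on the strand of the gene, and capitals mark matches to GGGCGG or CCAAT on either strand. A match describes the sequence and does not show that a factor binds.
Suv39h1 promoter: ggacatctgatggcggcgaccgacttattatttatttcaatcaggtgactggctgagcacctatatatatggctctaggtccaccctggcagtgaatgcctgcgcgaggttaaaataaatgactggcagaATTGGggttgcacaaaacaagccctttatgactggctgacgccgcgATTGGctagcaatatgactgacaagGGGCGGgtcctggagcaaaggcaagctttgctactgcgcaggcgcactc
Kdm5b promoter: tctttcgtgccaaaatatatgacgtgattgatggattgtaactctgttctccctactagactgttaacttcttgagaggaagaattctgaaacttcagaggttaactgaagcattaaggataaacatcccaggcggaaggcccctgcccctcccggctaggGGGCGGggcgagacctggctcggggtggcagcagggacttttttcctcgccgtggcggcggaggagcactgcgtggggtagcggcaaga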

How the data were processed

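Per the submitters' notes and the paper, the authors prepared libraries with a strand-specific total RNA kit with ribosomal RNA depletion, trimmed reads with Trimmomatic 0.36, aligned them with STAR 2.5.2b to mm10 and counted unique reads within exons with featureCounts. The authors deposited raw counts for 425461 exonic parts per library. Parts were summed per Ensembl gene identifier. Of 33309 parts with joined identifiers, 27968 overlapped the exons of a single member gene (GENCODE M21, GRCm38) and were assigned to it, and the others, 2.49% to 2.57% of the counts of a library, were left out. Counts on opposite strands and in near-identical copies are uncertain.

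Delipidated and control libraries were tested against each other in edgeR 4.0.16 (R 4.3.3, filterByExpr, minimum count 10 and minimum total 15, TMM, quasi-likelihood test, no covariates), with Benjamini-Hochberg adjustment over all genes tested. CPM use TMM-scaled library sizes. DESeq2 1.42.0, limma 3.58.1, other filters, scalings and part choices, a replicate block and each library left out were alternatives. Tables were handled with Python 3.11.15. All 10 genes were named, and of the wider list the most abundant per role and those past a threshold; other names were chosen after their values were seen. The genes and lists were chosen with earlier results of these data known.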

Additional observations from a re-analysis of the deposited data

How the results depend on the processing

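The numbers of the 10 genes and of the 51 other histone methylation genes called were 0 in every alternative, leave-one-out fits included. Over all genes, 0 were called in either direction apart from the fits given every gene with a count. In these, DESeq2, with its own default filtering only, called 9 higher and 40 lower. Without any filter on low counts, edgeR called 5 higher and 25 lower. These fits were given 30967 genes, against 16020 in the main fit. Of 148 alternative fold changes of the 10 genes, 139 kept their direction and 0 passed the threshold, and the smallest adjusted p was 0.718 (edgeR without a filter). The direction reversed in 9, of which 8 left out a library. These were Kdm5b (range -0.036 to 0.15 with each library left out), Kdm1a (-0.43 to 0.17, and 0.083 in the single part with most counts), Kdm6b (-0.043 to 0.51), Ehmt1 (-0.29 to 0.12, with 0.05 without control replicate 2), Ehmt2 (-0.55 to 0.44, with 0.26 without delipidated replicate 3) and Ezh2 (-0.10 to 0.24). The other genes kept their direction but not their size, at -0.51 to -0.11 for Kdm5a, -0.52 to -0.20 for Setdb1, -0.41 to -0.096 for Suv39h1 and -0.43 to -0.0026 for Eed. The cause was not tested. The replicate numbers are shared by the groups but did not pair the libraries, since the deviations of same-numbered libraries correlated at -0.084, 0.070 and 0.043; with the replicate block 0 genes were called. In the longest part of each gene, often noncoding, the order of the levels was overturned. Kdm6b was highest at 35.3 CPM per kilobase, near its level over all parts, and the other control levels were 1.43 for Kdm5a, 3.05 for Kdm5b, 1.64 for Kdm1a, 0.673 for Ehmt1, 0.791 for Ehmt2, 4.03 for Setdb1, 2.31 for Suv39h1, 0.319 for Ezh2 and 0.290 for Eed. In coding parts alone, a measure added after seeing the data, they were 38.7 for Kdm5a, 200.5 for Kdm5b, 23.1 for Kdm1a, 38.1 for Ehmt1, 24.7 for Setdb1, 238 for Ezh2 and 78.3 for Eed, and 9.87 for Suv39h1 without parts on the opposite strand, also added. Ehmt1 had no value without joined parts, and Ehmt2 did not pass the filter as a single part. Ehmt2 had the lowest count of the 10 genes in a library, 108; the part of depth in its spread was not tested.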
